A study of Mus musculus with 54 samples.

Results

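The genes described here are the 5 Reg family members Reg1, Reg3a, Reg3b, Reg3g and Reg4, chosen by name. All 5 were found among the 48440 entries of the mRNA table and among the 27998 genes of the single-cell matrices. The mRNA data covered Sox9-EGFP Low cells sorted from small intestinal crypts of C57BL/6J mice in 4 groups of 4 libraries: mice on a chow diet, mice on a high fat diet, germ-free mice, and conventionalized mice. Sox9-EGFP Low names the crypt cells with low brightness of a green reporter driven by Sox9, a gate that encloses the stem cell zone. Every mRNA group carried that reporter. The single-cell data covered 2 wild-type and 2 miR-375 knockout samples of small intestinal cells from 12 month old mice of a strain labelled C57BL6/2J, one sample of each genotype in each of 2 sets. Neither the ages of the mice behind the mRNA libraries nor the number of mice per library or sample were given in the sources used here, so every p-value measures the spread between these libraries or samples.

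Reg genes encode small secreted C-type lectins. REG3B and REG3G bind bacterial surfaces and are made by the gut epithelium when bacteria are sensed, through Toll-like receptor signals and through interleukin-22, which acts by way of STAT3. REG1 and REG3A belong to the same chromosomal cluster and are also known from the regenerating pancreas, whereas REG4 lies on another chromosome and is known from secretory cells of the gut, including Paneth, goblet and enteroendocrine cells.

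On the mouse build GRCm38 (the sequence of mm10), with GENCODE gene models, Reg3b (ENSMUSG00000071356) lies at chr6:78370657-78373466 on the plus strand. Reg3a (ENSMUSG00000079516) lies at chr6:78380709-78383827 and Reg1 (ENSMUSG00000059654) at chr6:78422711-78428667, both on the plus strand. Reg3g (ENSMUSG00000030017) lies at chr6:78466269-78468872 on the minus strand. These 4 genes, together with Reg2 and Reg3d, form a run of 6 Reg genes over 98216 bp. Reg4 (ENSMUSG00000027876) lies apart, at chr3:98222156-98236748 on the plus strand. Since the Reg3 genes are similar copies, the division of reads between them by the authors' counting is uncertain.

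The promoter stretches of the 3 members that the results turn on are shown because Reg3b and Reg3g varied together over the libraries and Reg4 had another order of groups. Each stretch is 154 bases long, holds no annotated exon of its gene, comes from the RefSeq promoter table of GRCm38.p6 and reads 5′ to 3′ on the gene's strand. The Reg3b stretch lies between an upstream first exon of a longer gene model and the first exon of the main one. Capitals mark matches to TTCNNNGAA, the STAT consensus, a palindrome searched on both strands.
Reg3b, chr6:78370707-78370860, plus strand: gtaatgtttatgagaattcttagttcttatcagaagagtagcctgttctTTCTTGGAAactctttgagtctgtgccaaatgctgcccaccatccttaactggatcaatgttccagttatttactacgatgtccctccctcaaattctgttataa
Reg3g, chr6:78468899-78469052, minus strand: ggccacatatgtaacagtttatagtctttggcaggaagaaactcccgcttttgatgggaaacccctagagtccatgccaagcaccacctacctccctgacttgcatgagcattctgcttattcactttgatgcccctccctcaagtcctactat
Reg4, chr3:98221978-98222131, plus strand: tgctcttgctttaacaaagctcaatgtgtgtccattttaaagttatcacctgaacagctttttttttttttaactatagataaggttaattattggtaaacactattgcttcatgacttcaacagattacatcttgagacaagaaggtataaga

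The Reg3b stretch held 1 match, at bases -129 to -121 counted from the RefSeq start, and the stretches of Reg3g, Reg4, Reg3a and Reg1 held none of these letters. Over all 32851 promoters of the table, 4.2% held a match in the same 154 bases. In a global alignment, the Reg3b and Reg3g stretches were identical at 60.9% of columns, the highest share among the 21 pairs of Reg genes compared. The Reg1 and Reg2 stretches followed at 57.2%.

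The labelled identity of the samples was checked before the levels were read. Stem cell markers such as Lgr5, Olfm4 and Ascl2 were detected in every mRNA group, with a summed level over the 10 markers of 12423 to 142092 normalized counts per library. Markers of secretory cells were high in the same libraries: 14 enteroendocrine markers summed to between 127694 and 1385510 normalized counts, above the stem marker sum in each of the 16 libraries, 11 Paneth markers to between 49810.3 and 951152, and 8 goblet markers to between 19858 and 600823. T lymphocyte markers summed to 501 at most. The small RNA labels name the other diet for the animal number of chow replicate 3, and a small RNA column header does so for that of high fat replicate 3. The diet comparison is therefore also given without both, and the comparisons with chow without chow replicate 3. Mature miR-375 has no entry in the single-cell matrices, so the knockout label was not checked here. Sums of the normalized counts ran from 10680267 to 19117886 per mRNA library.

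Reg3b and Reg3g were the members whose level followed the microbial state most widely, whereas Reg4 had its own order of groups. Reg3b stood at 57444, 10576, 3907 and 25860.2 normalized counts in the 4 conventionalized libraries. In germ-free libraries it stood at 512, 341, 24.3 and 39.8. Every conventionalized library therefore lay above every germ-free one, although the spread inside each group was more than 10-fold. Reg3b reached 7257, 2089.6, 4400.3 and 3964 on chow and 1309, 1831, 762 and 464 on the high fat diet. From the highest median down, the order was conventionalized (18218), chow (4182), high fat (1036) and germ-free (191). Chow and high fat did not overlap, while conventionalized and chow, and high fat and germ-free, did.

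Reg3g, the partner lectin that targets Gram-positive bacteria, had the same order of groups with a narrower range. It stood at 35649, 5996, 2729.6 and 14588 normalized counts in conventionalized libraries and at 764, 661, 244 and 289 in germ-free ones. On chow it reached 8846, 4116, 2584 and 6037, and on the high fat diet 3586, 2386, 1677 and 1283. The germ-free libraries lay below all 12 others, and the remaining neighbours in the order overlapped.

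Per length of transcript, Reg4 had the highest median over all libraries, though not in every group. Its median over the 16 libraries was 17470 normalized counts per kilobase of exon, against 1717 for Reg3b, 1257 for Reg3g, 221.9 for Reg1 and 152.1 for Reg3a, and the Reg3g value is lowered by the long forms in its gene model. In conventionalized libraries Reg3b was above Reg4, with a median of 15950 against 8451 per kilobase. Reg4 stood at 84775, 33529, 37054 and 14514 normalized counts in germ-free libraries and at 22903, 21160, 90439 and 32798 on chow. It stood at 4081, 3649, 26255 and 13177 in conventionalized libraries and at 3156, 11282, 5951 and 9065 on the high fat diet. The high fat libraries lay below all germ-free and all chow libraries, with or without chow replicate 3, while the conventionalized ones overlapped every other group.

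Reg1 and Reg3a were low in these sorted cells and varied widely inside groups. Reg1 stood at 465, 40.6, 8.26 and 5.93 normalized counts in germ-free libraries and at 1055, 266, 150 and 331 in conventionalized ones. It stood at 226, 265, 96.1 and 124 on chow and at 562, 714, 175 and 166 on the high fat diet. For Reg1, 3 of the 4 germ-free libraries were below every other library of the table, and the fourth was not. Reg3a ran from 43.8 to 343 in germ-free, from 55.5 to 610.1 in conventionalized, from 57.7 to 202 in chow and from 82.3 to 664 in high fat libraries, so that all groups overlapped. Conventionalized replicate 1, the library highest in Reg1, Reg3a, Reg3b and Reg3g within its group, also had the highest sums of enterocyte markers (54215, against 14143 to 23454 in the other 3) and goblet markers (600823, against 19858 to 75102). Germ-free replicate 1, the highest of its group in the same 4 genes, had the highest enterocyte sum there (48573, against 17511 to 21906). The part of these cells in the values was not tested. The family's other genes, Reg2 and Reg3d, never exceeded 1.99 and 4.23 normalized counts and were too low to test.

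**Figure D1:**
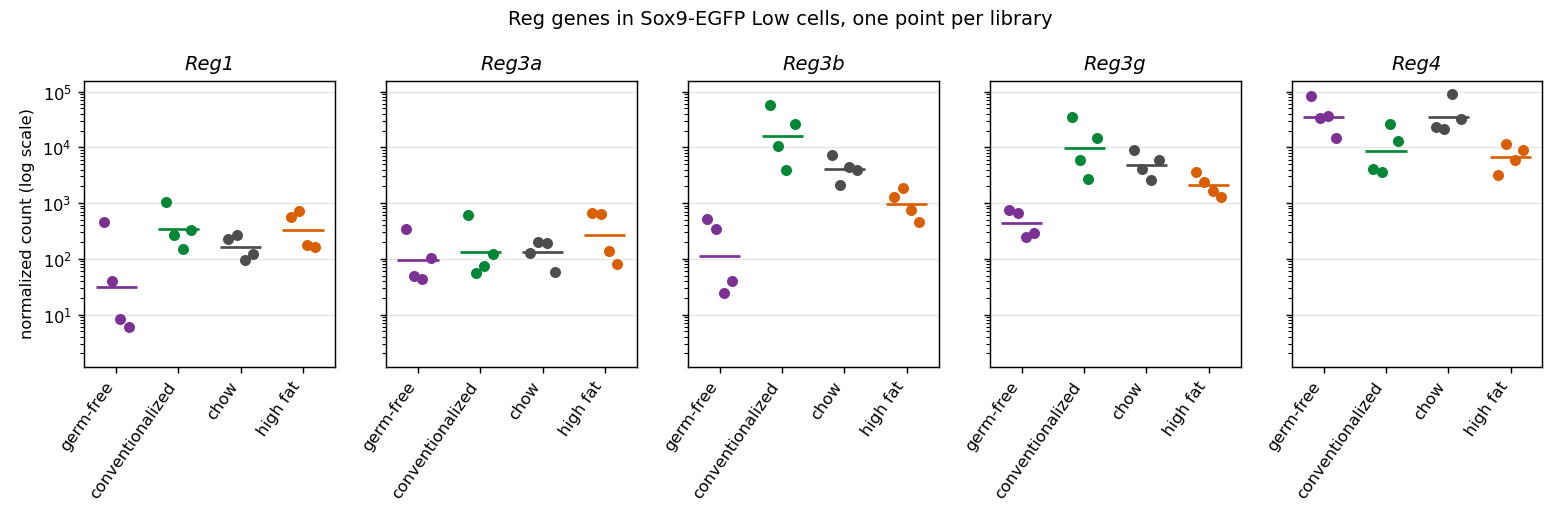
Normalized counts (log axis) of the 5 Reg genes in Sox9-EGFP Low cells, 1 point per library and 4 libraries per group; bars are geometric means. Reg3b and Reg3g points of the germ-free group lie below all conventionalized and chow points, and Reg4 points of the high fat group lie below all chow and germ-free points.

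Germ-free and conventionalized mice were compared to ask what the presence of a microbiota changes in these cells. Reg3b was 136-fold lower in germ-free libraries (log2 difference -7.08 ± 0.97 SE, n = 4 against 4, limma adjusted p = 0.0129), and Reg3g was 22.1-fold lower (log2 difference -4.46 ± 0.66 SE, limma adjusted p = 0.0129). All 4 germ-free libraries were below all 4 conventionalized ones for both genes. These 2 of 5 members were called lower, where 2.24% of the 20214 genes tested were called either way and 0.292% lower, and 6.21% of genes had germ-free libraries all below conventionalized ones. Differences here are of log2(normalized count + 1), and a call means an adjusted p under 0.05.

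The other members did not pass. Reg1 differed by -3.37 ± 1.09 SE on the log2 scale (limma adjusted p = 0.139, and 0.0414 with all 4 groups in 1 fit) and Reg3a by -0.49 ± 0.78 SE (limma adjusted p = 0.712). Reg4 pointed the other way, at 2.05 ± 0.67 SE (limma adjusted p = 0.139). Enteroendocrine markers, a cell type in which Reg4 is known, had a median log2 difference of 1.94 over 14 genes, with 4 called higher, and summed to 639802 to 1385510 normalized counts in germ-free against 144664 to 354716 in conventionalized libraries. No marker of that list was at 0 in either group. Paneth and goblet markers, whose cells carried most Reg4 in the single-cell data, had medians of -0.21 and 0.06 with none called. The part of any of these cells in the Reg4 values was not tested. In sorted bulk samples, fewer cells of a type and less RNA per cell cannot be told apart. Enterocyte markers, the cell type that carried most Reg3b and Reg3g in the single-cell data, had a median log2 difference of -0.47 with 1 of 12 called, higher, and their sums overlapped (17511 to 48573 in germ-free, 14143 to 54215 in conventionalized). Cycling markers had a median of -1.62 with 3 of 12 called lower, and stem markers -1.32 with none of 10 called.

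Without germ-free replicate 1 the differences were as large, -7.80 for Reg3b and -4.73 for Reg3g, but Reg3b alone was called in the whole table (limma adjusted p = 0.0471), and Reg3g had a limma adjusted p of 0.0518.

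Among the genes that sense microbes or carry the interleukin-22 signal, the microbial comparison gave no call. None of the 24 tested genes of that list, which includes Tlr4, Myd88, Il22ra1 and Stat3, was called, and their median log2 difference of 0.00 stood beside 0.11 over all genes tested. Of 21 tested antimicrobial and microbe-induced epithelial genes, 1 was called lower and 19 had a negative difference, with a median of -1.02. The called gene was Duox2, an epithelial oxidase that makes hydrogen peroxide. It stood at 40.7, 91.9, 30.5 and 10.4 normalized counts in germ-free libraries and at 318, 221, 138 and 182 in conventionalized ones, groups that did not overlap (log2 difference -2.58 ± 0.59 SE, limma adjusted p = 0.0409). Of the regional lists, none of 7 tested proximal and none of 8 tested ileal genes was called. Sums over the ileal list were nevertheless 2977, 2773, 1661 and 2317 normalized counts in germ-free libraries. All lay below the 6208, 3006, 3668 and 4398 in conventionalized ones, while proximal sums overlapped. Osr2 had the highest mean of the ileal list in both groups (1353 and 2544), and 7 of the 8 genes had a negative difference. The part of intestinal region in the Reg3b and Reg3g values was not tested.

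High fat and chow diets were compared next, and no member was called at a background of 0.822% of 16421 genes. Reg4 had the largest difference, 5.23-fold lower on the high fat diet (log2 difference -2.39 ± 0.50 SE, limma adjusted p = 0.0605). Reg3b followed at 4.20-fold lower (log2 difference -2.07 ± 0.45 SE, limma adjusted p = 0.0635). For both genes all 4 high fat libraries lay below all 4 chow libraries, which held for 7.36% of genes tested. Reg3g differed by -1.24 ± 0.40 SE (limma adjusted p = 0.102). Reg1 and Reg3a had positive log2 differences, 1.01 ± 0.52 SE and 1.01 ± 0.69 SE, and neither passed (limma adjusted p = 0.246 and 0.382). High fat replicates 1 and 2, the highest of their group in both genes, also had the highest enterocyte marker sums (92535 and 90538, against 32054 and 33507 in the other 2), and the part of these cells was not tested.

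The 14 enteroendocrine markers all had negative differences on the high fat diet, with a median log2 difference of -2.01 and none called. Their sums were 127694 to 329174 normalized counts on the high fat diet and 401641 to 1366740 on chow, and chow replicate 3, the library with the most Reg4, also had the highest sum of the group. Tuft cell markers had 6 of 11 genes called lower with a median of -2.24. Paneth and goblet markers lay the other way, with median log2 differences of 0.60 and 0.81, none called, and sums of 284083 to 951152 and 90761 to 316985 on the high fat diet against 76052 to 843287 and 66398 to 245866 on chow. The part of these cell types in the Reg4 values was not tested. Of the 21 antimicrobial genes tested, 1 was called, lower: Nos2, the inducible nitric oxide synthase, at 28.1, 20.4, 42.3 and 36.5 normalized counts on the high fat diet against 315, 175, 139.6 and 394 on chow (log2 difference -2.89 ± 0.37 SE, limma adjusted p = 0.0284). None of 21 microbe sensing genes was called, and none of 7 proximal or 7 ileal ones. Sums over the proximal list were nevertheless 24527, 24773, 6688 and 6036 normalized counts on the high fat diet. All lay above the 2985, 4661, 4434 and 2576 on chow, while ileal sums overlapped. The proximal sums rest largely on Fabp1, which is also in the enterocyte list, with a mean of 12485 on the high fat diet and 1519 on chow. Of the 7 tested proximal genes, 5 had a positive and 2 a negative difference, with a median of 0.40. The part of intestinal region in the Reg values was not tested.

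Which libraries entered decided the diet calls. Without chow replicate 3 and high fat replicate 3, whose labels conflict, Reg4 differed by -1.87 (limma adjusted p = 0.149) and Reg3b by -1.92 (limma adjusted p = 0.194). Without chow replicate 2 alone, 2 members were called, but so were 2590 genes in all, against 135 of 16421 (0.822%) in the main fit. The columns of both diets are numbered in 2 runs, replicates 1 and 2 in the first and 3 and 4 in the second, and Paneth marker sums were higher in the first run (611802 to 951152) than in the second (76052 to 294148). Within the first run the log2 differences were -1.88 for Reg4, -1.33 for Reg3b, -1.04 for Reg3g, 1.37 for Reg1 and 2.00 for Reg3a, and within the second -2.89, -2.81, -1.43, 0.64 and 0.02. With the run as a term, an alternative chosen after seeing the data, 9.35% of all genes were called and 4 members with them: Reg4 (limma adjusted p = 0.0208), Reg3b (0.0248) and Reg3g (0.043) lower, and Reg1 (0.0245) higher.

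Comparisons with chow put both microbial groups beside mice labelled by a chow diet. They share the chow libraries with the diet comparison and the germ-free or conventionalized libraries with the first comparison, so they are not independent of them. Chow and high fat columns carry another name prefix than germ-free and conventionalized ones. A difference between these series of columns cannot be told apart from the microbial state here, nor in the order of all groups. Conventionalized minus chow called 17 of 17941 genes (0.0948%, all lower) and no member. Its log2 differences were 1.96 ± 0.68 SE for Reg3b (limma adjusted p = 0.323) and -2.03 ± 0.64 SE for Reg4 (limma adjusted p = 0.289). For Reg1, Reg3g and Reg3a the differences were 1.07, 0.98 and 0.02 (limma adjusted p = 0.473, 0.59 and 0.993). Without chow replicate 3 no gene was called, and Reg3b differed by 2.01 and Reg4 by -1.57 (limma adjusted p = 0.491 and 0.501).

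Germ-free minus chow called 0 of 19475 genes with limma, although 5346 (27.5%) had an unadjusted p under 0.05. Reg3g differed by -3.49 ± 0.45 SE (limma adjusted p = 0.0944) and Reg3b by -5.12 ± 0.87 SE (limma adjusted p = 0.0982), each with all germ-free libraries below all chow libraries, as for 5.2% of genes. Reg1 differed by -2.30 (limma adjusted p = 0.199), Reg3a by -0.47 (0.633) and Reg4 by 0.02 (0.983). Without chow replicate 3, Reg3g differed by -3.79, Reg3b by -5.08 and Reg4 by 0.48 (limma adjusted p = 0.0757, 0.0757 and 0.54). In both comparisons none of the microbe sensing genes (22 and 24 tested) and none of the 21 antimicrobial genes was called. The antimicrobial list had a median of -0.42 against chow in conventionalized and -1.16 in germ-free libraries.

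**Figure D2:**
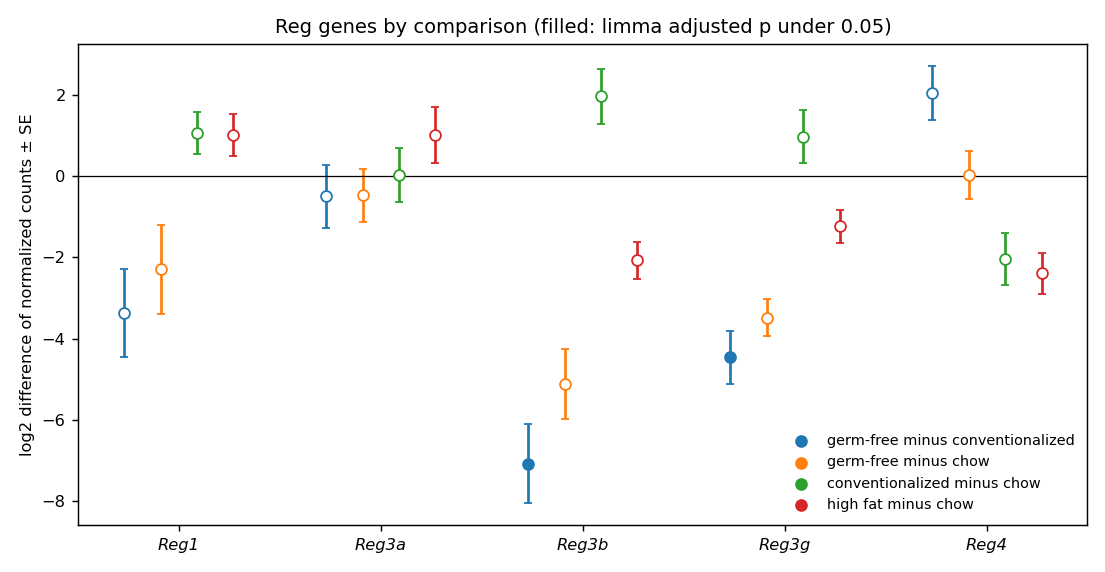
Log2 differences with standard errors for each Reg gene in the 4 comparisons of mRNA groups (4 libraries each); filled points have a limma adjusted p under 0.05. Only Reg3b (-7.08) and Reg3g (-4.46) in germ-free minus conventionalized are filled.

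Across the 16 mRNA libraries Reg3b and Reg3g varied together, with a Pearson correlation of log2 values of 0.965, and 0.851 after group means were removed. Reg1 correlated with Reg3b at 0.761, and at 0.824 within groups. Reg4 correlated with the other members at -0.400 to -0.275, and within groups at -0.353 with Reg3g, -0.0455 with Reg3a, 0.0232 with Reg3b and 0.108 with Reg1. Without chow replicate 3 and high fat replicate 3, over 14 libraries, Reg3b and Reg3g correlated at 0.973 and Reg4 with the others at -0.486 to -0.361. The ratio of Reg3b to Reg3g was itself different between groups: it ran from 1.43 to 1.77 in conventionalized, from 0.508 to 1.70 in chow, from 0.361 to 0.767 in high fat and from 0.0996 to 0.670 in germ-free libraries. These are descriptions over 16 libraries that share 4 groups.

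The genes most like each member, taken as the 5 with the highest correlation among 18681 genes, differed by member. After Reg3g, the closest to Reg3b were Rbck1 (0.897), Sh3gl1 (0.877), Dcaf11 (0.871) and Cfi (0.865). Reg3g had Rbck1 (0.912), the zinc importer gene Slc39a4 (0.902), the necroptosis effector gene Mlkl (0.874) and Duox2 (0.864). After group means were removed these values fell to 0.739, 0.831, 0.692 and 0.604 for Reg3g. For Reg3b they were 0.697, 0.738, 0.902 and 0.669, lower for all but Dcaf11. Reg3a lay closest to Adh6a, an alcohol dehydrogenase gene (0.950), Idh1 (0.932), the brush border phosphatase gene Alpi (0.927), Slc25a45 (0.911) and Smlr1 (0.906), with within-group values of 0.903 to 0.957. For Reg1 they were Cldnd1 (0.943), Cyp3a25 (0.939), Alppl2 (0.936), Slc3a2 (0.919) and Eno3 (0.919), with within-group values of 0.881 to 0.935. For Reg4 they were the urocortin gene Ucn3 (0.971), Afp (0.969), the complexin gene Cplx1 (0.964), Ngb (0.963) and Fkbp1b (0.963), with within-group values of 0.911 to 0.951.

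Single-cell samples showed which cell types carried the members. In set 1 the wild-type and knockout samples kept 1185 and 1229 cells, and in set 2 they kept 3156 and 3149, with medians of 16312, 15881, 5746 and 13584 UMIs (unique molecular identifiers, 1 per captured transcript) per cell. The sets differed in quality: mitochondrial genes took a median of 5.90% and 5.62% of UMIs of all set 1 barcodes, against 40.9% and 37.9% in set 2. The 2 samples of set 1 shared 1 barcode and those of set 2 shared 12. Cells were clustered without any Reg gene and clusters were named by marker genes, each name with the suffix -like. In the order wild type and knockout of set 1, then of set 2, there were 439, 235, 491 and 821 enterocyte-like cells. Goblet-like cells numbered 179, 235, 248 and 320, Paneth-like cells 85, 79, 66 and 243, and enteroendocrine-like cells 30, 27, 25 and 32.

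Reg1, Reg3a, Reg3b and Reg3g were concentrated in enterocyte-like cells, the absorptive cells. Values below follow the same sample order and are CPM, the UMIs of a gene in every 1000000 UMIs of the class. Reg3b reached 3865, 3728, 23619.6 and 14255 in enterocyte-like cells, and Reg3g 2722, 3542, 9657 and 4723. Both were higher in set 2 than in set 1 in either genotype. Enterocyte-like cells held 82.3% to 90.4% of a sample's Reg3b UMIs and 59.6% to 79.0% of its Reg3g UMIs. Reg3a reached 1438, 1709, 665 and 1221 in them, with 86.9% to 96.4% of its UMIs, and Reg1 155, 301, 228 and 870.3, with 64.3% to 93.6%.

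Reg4 was a gene of secretory classes. Paneth-like cells, which make defensins and lysozyme, had 1122, 1007, 828 and 864 CPM, and goblet-like cells, which make mucus, 617, 468, 296 and 308. Paneth-like cells held 57.6% to 73.9% of a sample's Reg4 UMIs and goblet-like cells 13.7% to 29.3%. Enterocyte-like cells had 8.30, 8.99, 0.969 and 2.44 CPM, close to or below the 6.20, 8.07, 9.69 and 24.5 CPM of leukocyte-like cells, so this level is read as background. Enteroendocrine-like cells were uneven, at 225, 3762, 0 and 6656 CPM.

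The same division appeared in the share of cells with a UMI after every cell was thinned to 1000 UMIs. Reg3b was then found in 48.3%, 55.7%, 96.3% and 84.9% of enterocyte-like cells (83.4%, 83.8%, 99.4% and 98.2% before thinning). Leukocyte-like cells, which should not make it, had a Reg3b UMI in 0, 7.14%, 38.4% and 31.9% of thinned cells (46.2%, 17.9%, 73.1% and 56.2% before thinning), so a share in other classes of set 2 is read beside this background. The 0 among 26 cells allows a share of up to 11.5%. Median depth before thinning was 15069, 13652, 26021 and 17438 UMIs in enterocyte-like and 12749, 12073, 2788 and 2094 UMIs in leukocyte-like cells. In set 2, goblet-like cells had a Reg3b UMI in 25.4% and 24.4% of thinned cells, below the leukocyte-like share, so no expression is read from that share. Per cell, however, they held 16.6 and 7.62 Reg3b UMIs against 1.49 and 0.857 in the shallower leukocyte-like cells, and 745 and 299 in enterocyte-like cells.

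Reg4 was found in 55.3%, 51.9%, 54.5% and 52.3% of thinned Paneth-like cells and in 27.4%, 20.9%, 14.5% and 14.1% of thinned goblet-like cells, against 0 to 3.57% of leukocyte-like cells. Before thinning, the Paneth-like shares were 100%, 100%, 98.5% and 92.6%. Spread over cells, the highest single Paneth-like cell held 1.88% to 5.90% of the class's Reg4 UMIs. By CPM, Reg3g was the 1 member of the chromosome 6 cluster higher in Paneth-like than in leukocyte-like cells in most samples, 3 of 4. It stood at 178, 248, 583 and 632 CPM against 34.1, 802, 243 and 183. Paneth-like cells were deeper, with medians of 72990, 71949, 65153 and 34825 UMIs against 12749, 12073, 2788 and 2094. Per cell they also held more Reg3b UMIs in every sample, 2.2, 1.44, 11.3 and 3.63 against 0.462, 0.786, 1.49 and 0.857. This order therefore depends on the measure.

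**Figure D3:**
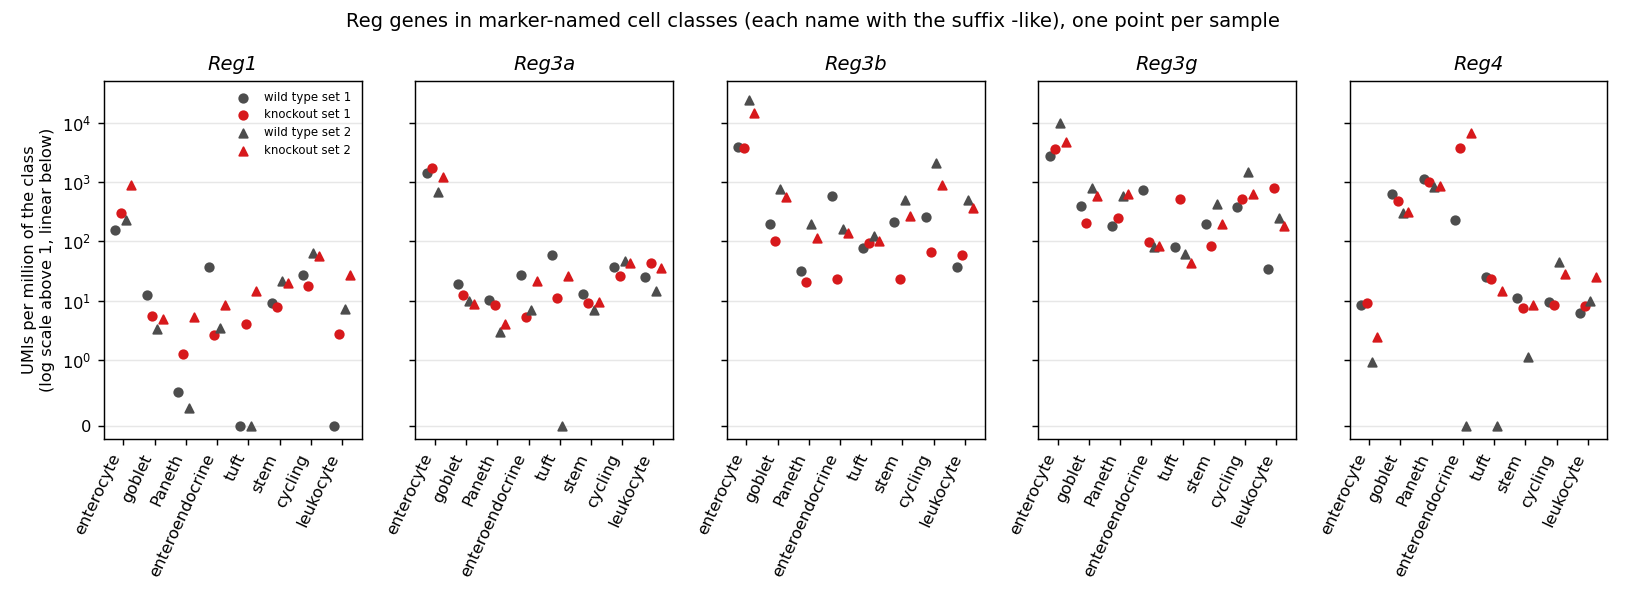
CPM in each marker-named class for the 5 Reg genes (log axis above 1, linear below), 1 point per sample; circles are set 1, triangles set 2, grey wild type and red knockout. Reg1, Reg3a, Reg3b and Reg3g are highest in the enterocyte class, and Reg4 in Paneth, goblet and, in the 2 knockout samples, enteroendocrine classes.

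The class differences were tested over the 4 samples on summed counts with the sample as a block. All 5 members were called between Paneth-like and enterocyte-like cells, as were 65.8% of the 10450 genes tested, so the count itself sets the members little apart and the sizes carry the result. Reg4 was higher in Paneth-like cells by 10.09 ± 0.27 SE on the log2 scale (edgeR adjusted p = 8.97e-15), a value that depends on the background level in enterocyte-like cells. Reg1, Reg3a and Reg3b differed by -5.70, -5.46 and -4.94 (edgeR adjusted p = 2.61e-13, 1.74e-12 and 3.04e-13), and Reg3g by only -1.53 ± 0.17 SE (edgeR adjusted p = 6.98e-07). Against goblet-like cells all 5 were again called, at a background of 63.4% of 10776 genes. Reg4 was higher there by 6.68 ± 0.37 SE (edgeR adjusted p = 1.86e-06), and Reg3a, Reg1, Reg3b and Reg3g were lower, by log2 differences of -6.66, -5.73, -4.81 and -3.43 (edgeR adjusted p from 1.66e-07 to 2.07e-05).

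Enteroendocrine-like cells also had all 5 members called, where 52.6% of 10388 genes were. Reg1, Reg3a, Reg3b and Reg3g differed from enterocyte-like cells by -5.06, -7.04, -6.74 and -5.63 on the log2 scale (edgeR adjusted p from 2.24e-08 to 4.36e-05). Reg4 was higher by 6.85 ± 1.23 SE (edgeR adjusted p = 0.000487), with nearly all of the UMIs in a few cells.

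The cells with Reg4 were few in every sample. A Reg4 UMI was present in 4 of 30, 7 of 27, 0 of 25 and 7 of 32 enteroendocrine-like cells, and the 0 of 25 allows up to 12% of cells with a UMI, which is no limit on cells expressing the gene. In the set 1 samples 1 cell held 102 of 109 and 1 cell 1429 of 1452 Reg4 UMIs. In the set 2 knockout 4 cells held 823, 459, 259 and 33 of 1577. Cells with 5 or more Reg4 UMIs numbered 2, 3, 0 and 4. Of these, 2, 1, 0 and 4 also had a UMI of Tph1, the gene of the serotonin-making enzyme of enterochromaffin cells, which was present in 5, 5, 4 and 11 enteroendocrine-like cells.

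Enterocyte-like cells were divided by Fabp6, a bile acid binding protein of the ileum, to ask how the members vary along the intestine. After thinning, 14, 32, 87 and 88 cells had a Fabp6 UMI and 425, 203, 404 and 733 had none. Reg1 was lower in Fabp6-positive cells in every sample, at 4.25, 97.2, 9.04 and 37.0 CPM against 160.2, 333, 274 and 973. The Fabp6-positive values rested on 1, 44, 24 and 70 Reg1 UMIs, so the first is near the floor. Reg3g was higher in them in every sample, at 7007, 7638, 10560.1 and 12639 CPM against 2570.3, 2899, 9470.4 and 3747. Reg3b was higher in 3 samples, at 9038, 8901 and 37666 CPM against 3681, 2915 and 11367, and about level in the set 2 wild type, at 22810.4 against 23787. Reg3a was higher with Fabp6 in set 1 (2346 and 1895 against 1406 and 1679) and lower in set 2 (411 and 607 against 717 and 1296). These splits are values without a test, and intestinal region cannot be told apart here from other differences between enterocyte-like clusters. The Fabp6-rich cluster had the highest Reg3g CPM in every sample. In the set 2 wild type it was only narrowly so, at 12450 against 5818 to 12055 in the other clusters.

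**Figure D4:**
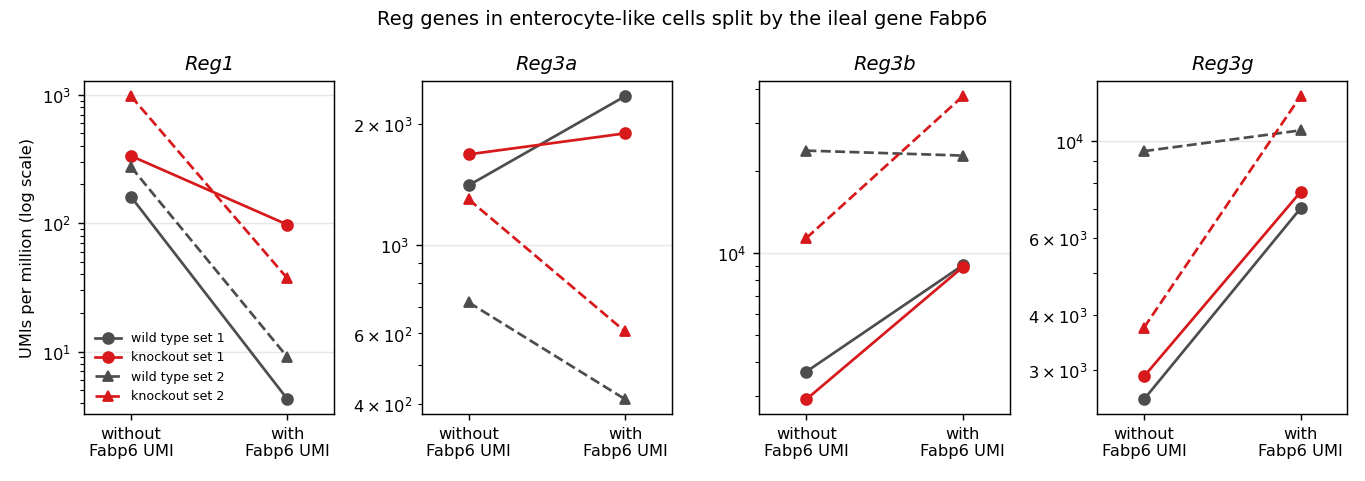
CPM (log axis) of 4 Reg genes in enterocyte-like cells without and with a Fabp6 UMI, lines joining the 2 values of each sample; circles are set 1, triangles set 2, grey wild type and red knockout. Reg1 lines all descend, Reg3g lines all ascend, and Reg3a lines ascend in set 1 and descend in set 2.

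Knockout and wild type were compared to ask whether loss of miR-375 alters the members. With 2 samples of each, edgeR called 0 genes, and so 0 members, in all kept cells and in each of the 4 classes. An unadjusted p under 0.05 was reached by 83 of 13543 genes (0.613%) in all kept cells and 154 of 10620 (1.45%) in enterocyte-like cells. It was reached by 40 of 10135 (0.395%) in goblet-like, 68 of 8182 (0.831%) in Paneth-like and 27 of 5279 (0.511%) in enteroendocrine-like cells. DESeq2, used as an alternative, called 7 genes in all kept cells, 6 in enterocyte-like and 1 in goblet-like cells, and no member.

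Within enterocyte-like cells, Reg1 had the largest difference. Its level in the knockout was 1.94 times that of wild type in set 1 and 3.81 times in set 2 (log2 difference 1.63 ± 0.53 SE, edgeR adjusted p = 1). Reg3a was at 1.19 and 1.84 times wild type (log2 difference 0.49 ± 0.46 SE). Reg3b was at 0.965 and 0.604 times (-0.57 ± 0.98 SE), and Reg3g at 1.30 and 0.489 times (-0.54 ± 0.61 SE), so the sets differed in direction for Reg3g. All of these had an edgeR adjusted p of 1. Without a filter on low counts Reg1 was the 1 member called (edgeR adjusted p = 0.00258), among 61 of 15841 genes (0.385%).

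The mix of enterocyte-like clusters was unequal between genotypes, so ratios were also taken cluster by cluster. One set 1 cluster held 62 wild-type and 1 knockout cell and was not compared. In the 9 clusters with at least 20 cells of each genotype, Reg1 was higher in the knockout in 7, at 1.73 to 3.63 times wild type. The remaining 2 were the Fabp6-rich clusters, 1 in each set, where it was at 0.580 and 0.643 times. Reg3a was higher in the knockout in 7 of 9. Reg3b was lower in 7 of 9, with ratios from 0.354 to 1.38, and Reg3g in 6 of 9, with ratios from 0.340 to 2.07. Clusters of a set share the same 2 samples, so these counts are not replicates. Over cells without a Fabp6 UMI alone the log2 difference of Reg1 was 1.61 (edgeR adjusted p = 1).

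Reg4 in its main classes did not pass the test between genotypes. In Paneth-like cells the log2 difference was -0.07 ± 0.62 SE and in goblet-like cells -0.18 ± 0.44 SE (edgeR adjusted p = 1 for both), and with 2 samples per genotype differences of these errors are not narrowly bounded. In enteroendocrine-like cells Reg4 differed by 5.27 ± 1.85 SE (edgeR adjusted p = 1), Reg3b by -2.47 ± 0.96 SE and Reg3g by -2.32 ± 1.07 SE. With the set as a block these 3 were called (edgeR adjusted p = 2.46e-07, 0.00669 and 0.00615), among 29 of 5279 genes (0.549%). The Reg4 difference rested on the few cells described above. In enteroendocrine-like cells Reg3b was at 567, 23.3, 162 and 135 CPM and Reg3g at 742, 98.4, 79.0 and 84.4 CPM. The set 1 wild type stood apart, and the other 3 samples were below their leukocyte-like cells in CPM. Per cell, however, both set 2 samples were above their shallower leukocyte-like cells. They held 1.88 and 1 Reg3b UMIs against 1.49 and 0.857, and 0.92 and 0.625 Reg3g UMIs against 0.72 and 0.435.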

How the data were processed

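Members, gene lists and tests were chosen with earlier results of these data known. Per the submitters' processing notes, the tools included Cell Ranger, STAR, Salmon and DESeq2 on build mm10, without versions; the header of the set 2 matrices names software version 3.0.1. Per the labels' protocols, SMARTer Ultra Low Input with Nextera XT chemistry served for the mRNA libraries and 10x Chromium for the single cells.

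The deposited mRNA signal values are normalized counts; the sources used here do not say how the authors normalized them, and raw depth is unknown. They were tested with limma 3.58.1 (trend, two-sided, Benjamini-Hochberg over all genes tested) on log2(value + 1), for genes with a mean of at least 10 in the 2 groups compared. Of the 48440 entries, 381 without a gene name were left out; they held 0.0338% to 0.0804% of a library.

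The deposited single-cell values are raw UMI counts. A cell was kept if it had 500 or more genes, 1000 or more UMIs and less than 25% of them mitochondrial. The highest Scrublet scores were removed as doublets, 0.8% of cells per 1000 deposited barcodes. Each set was clustered with scanpy 1.11.5 (2000 variable genes, 30 components, 15 neighbours, Leiden resolution 1) without Reg genes, and a cluster was named from at least 3 markers. Sums per sample and class were tested with edgeR 4.0.16 (quasi-likelihood, TMM, low-count filter); a class needed 20 cells per sample. Both scripts were tested on simulated data. A floor of 3 counts stands for a count of 0, and floors cover counting error only.

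Genes named are the 5 members, both other Reg genes, every gene of the microbe sensing and antimicrobial lists called in a comparison, and the 5 closest genes by correlation. Replicate numbers were not taken to pair the mRNA libraries, since not every same-number correlation was over 0.1 in any comparison. Promoter stretches were aligned with Biopython 1.88.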

Additional observations from a re-analysis of the deposited data

Results flagged for a closer look

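The following 3 values stood apart from the other libraries of their group on the scale of normalized counts, by the gap to the nearest library divided by the range of the group; chance alone gives such a gap in about 1 in 20 groups. Reg1 in germ-free replicate 1 was at 465 normalized counts against 40.6 for the next, a gap of 0.924 of the range, in the library with the highest enterocyte marker sum of its group (48573). Reg3a in conventionalized replicate 1 was at 610.1 against 122, a gap of 0.881, in a library that also had the highest goblet and enterocyte marker sums of its group (600823 and 54215). Reg4 in chow replicate 3 was at 90439 against 32798, a gap of 0.832, and this is a library whose diet label conflicts with that of a small RNA library. None of the 3 stood apart on the log2 scale used for the tests.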

How the results depend on the processing

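In germ-free minus conventionalized, Reg3b and Reg3g were called under all other scalings, filters, pseudocounts, joint fits and left-out libraries tried, except without germ-free replicate 1, where Reg3g had a limma adjusted p of 0.0518. With all 4 groups in 1 fit 1672 of 20214 genes were called there, Reg1 among them (limma adjusted p = 0.0414). Members called ranged from 1 to 2 and genes from 1 to 684 when 1 library was left out. In high fat minus chow, 2 members and 317 genes were called without a filter on low values (Reg4 adjusted p = 0.0279, Reg3b 0.0304), 33 genes with all 4 groups in 1 fit, 12 without both libraries of conflicting label, and 1535 genes with 4 members with the run of column numbers as a term; leaving out 1 library gave 0 to 2 members and 0 to 2590 genes. In conventionalized minus chow, 39 genes were called without a filter, 26 with all groups in 1 fit and 0 to 6 with 1 library left out. In germ-free minus chow, 1 gene, Reg3g, was called without a filter, and 754 of 19475 genes with 2 members in the joint fit.

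No label ties the replicate numbers of the mRNA groups to a shared animal or day. Germ-free and conventionalized columns of the same replicate number do carry close numbers in their names, and the labels do not say what these stand for. The same-number correlations were 0.0552, 0.155, 0.0731 and 0.225 in high fat minus chow, and at least 1 was negative in each other comparison. With the replicate block, 271 of 16421 genes were called in high fat minus chow, 1 member among them (Reg4, limma adjusted p = 0.0468). In conventionalized minus chow 165 of 17941 genes were called, 1 member among them (Reg4, limma adjusted p = 0.026). In germ-free minus chow the block called 2907 of 19475 genes, 2 members among them. In germ-free minus conventionalized it called 494 of 20214 genes, with Reg1 as a further member (limma adjusted p = 0.0252).

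In single cells all 25 alternative counts of members called between classes were the same, and the 1 reversed value was Reg4 in enteroendocrine-like cells without those holding 5 or more Reg4 UMIs (-0.13), cells picked by the value compared, so that this shift was given by the choice. For knockout minus wild type, the count without a filter was 1 in enterocyte-like and 1 in Paneth-like cells (Reg1 in both) and 2 in enteroendocrine-like cells, and 3 there with the set as a block; 42 other counts stayed at 0. Classes set by a marker gate were not run for enteroendocrine-like cells, since 1 sample had 19. Thinning to 1000 UMIs limits what is seen of Reg1 and Reg3a in Paneth-like cells, where 0 to 2.06% and 0 to 2.35% of thinned cells had a UMI. Their levels there were low, at 0.264 to 5.37 and 2.90 to 10.1 CPM. With the set as a block, 6, 11 and 6 genes were called in enterocyte-like, goblet-like and Paneth-like cells, none of them a member.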

Other observations

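The chromosome 6 members were unevenly spread over enterocyte-like cells. In the order wild type and knockout of set 1, then of set 2, the tenth of cells with the most UMIs of Reg1, Reg3a, Reg3b and Reg3g together held 44.3%, 37.8%, 27.0% and 34.9% of them after thinning, and 18.9%, 9.79%, 0.815% and 4.63% of cells had none. Reg3b and Reg3g occurred in the same cells: their Spearman correlation over thinned enterocyte-like cells was 0.456, 0.397, 0.687 and 0.668. Among cells with a Reg3b UMI, 72.6%, 69.5%, 97.5% and 84.4% also had one of Reg3g, against 39.6%, 46.2%, 61.1% and 41.9% of cells without. Reg3b and Reg1 showed correlations between -0.107 and 0.0485, too weak to describe.

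Crypt classes were set beside the leukocyte-like background for Reg3b. By CPM, cycling-like cells lay above it in every sample, though only narrowly in the set 1 knockout. Stem-like cells lay above it in the set 1 wild type alone. Cycling-like cells had 254, 67.0, 2088 and 899.5 CPM and stem-like cells 211, 22.9, 502 and 263, beside 37.2, 59.2, 503 and 361 CPM in leukocyte-like cells. Per cell, stem-like cells held 3.26, 0.353, 11.3 and 4.02 Reg3b UMIs, and leukocyte-like cells, which were shallower in set 2, held 0.462, 0.786, 1.49 and 0.857. The order for stem-like cells therefore depends on the measure, and no expression is read from it. Reg1 in cycling-like cells was at 26.9, 17.8, 62.8 and 55.3 CPM against 0, 2.69, 7.27 and 26.7 in leukocyte-like cells, and cycling-like cells held 16.2% of the Reg1 UMIs of the set 2 wild type. Clusters left unnamed in set 2 held 6112 and 4089 CPM of Reg3b and 143.8 and 64.1 CPM of Reg1. These classes were chosen after their values were seen.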
